A study of Mus musculus with 16 samples.

Results

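Among CD4+ T cells that were sorted as negative for the IL-4 reporter from lymph nodes of infected mice, 158 of 8932 cells with an assigned mouse and node carried at least 1 transcript of the chemokine receptor gene Cxcr3 (chrX:101731535-101734269, minus strand, GRCm38) and none of the regulatory T cell gene Foxp3. These Cxcr3+Foxp3- cells, which were selected on their measured UMIs of these 2 genes, are described here. They were compared with 7833 cells of the same sort gate without a Cxcr3 or Foxp3 transcript (Cxcr3-Foxp3- cells), and with 315 Cxcr3+Foxp3- cells of the IL-4eGFP+ gate. The whole series held 26002 cell barcodes. Cells had to have more than 500 unique molecular identifiers (UMIs, each counting 1 captured RNA molecule), more than 500 genes, less than 7% mitochondrial UMIs and a top hashtag with at least 80% of the hashtag UMIs of the cell and at least 10 of them.

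The study followed Th2 cells after infection with the nematode Nippostrongylus brasiliensis, whose larvae pass through the lung before the worms settle in the small intestine. In the run used here, mediastinal lymph nodes (medLN, which drain the lung) and mesenteric lymph nodes (MLN, which drain the gut) were taken on day 10 from 2 female 4get mice on a C57BL/6 background, aged 10 weeks, which carry an IL-4eGFP reporter and drank water with antibiotics in the first days of infection. Cells of each node sample received their own hashtag antibody and were sorted as CD4+ IL-4eGFP+ or IL-4eGFP-, and the 4 samples of a gate were then pooled into 1 10x 5′ library. The groups therefore are medLN 1, medLN 2, MLN 1 and MLN 2, numbered by mouse, and each occurs in both gates. All mice were infected, so no uninfected level is at hand, and gate and library cannot be told apart. The gate reports IL-4 transcription and not a fate, with 2 mice behind every value.

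The hashtag barcodes carry the assignment of each cell to a mouse and a node, and so every replicate value below. Capitals mark the whole barcode of 15 bases, read 5′ to 3′:

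medLN 1: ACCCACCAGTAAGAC

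medLN 2: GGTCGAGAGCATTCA

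MLN 1: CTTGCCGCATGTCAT

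MLN 2: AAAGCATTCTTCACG

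By this assignment medLN 1 held 39 of the Cxcr3+Foxp3- cells, medLN 2 held 50, MLN 1 held 42 and MLN 2 held 27. Their summed depth was 143824, 183318, 181170 and 147802 UMIs in this order, against 6890054, 6654919, 7250330 and 7038528 UMIs in the Cxcr3-Foxp3- cells. The median per cell was close between both classes, with 3084.5 UMIs in the Cxcr3+Foxp3- cells and 3351 in the Cxcr3-Foxp3- cells, and single Cxcr3+Foxp3- cells ranged from 747 to 28495 UMIs. Levels are given as CPM, the UMIs of a gene per 1000000 UMIs of the summed cells. A gene without a UMI in a sample of Cxcr3+Foxp3- cells could still be present at up to 20.9 CPM in medLN 1, 16.4 CPM in medLN 2, 16.6 CPM in MLN 1 and 20.3 CPM in MLN 2, the level of 3 UMIs. Such limits and all intervals below cover counting error only.

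CXCR3 is the receptor for the interferon-induced chemokines CXCL9, CXCL10 and CXCL11. It is a hallmark of type 1 helper cells, in which the transcription factor T-bet (Tbx21) drives Cxcr3 together with Ifng, and it is also found on memory and effector cells that enter inflamed tissue and on some regulatory T cells. Naive CD4+ T cells, in contrast, enter lymph nodes through CCR7 and largely lack CXCR3.

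The label as T cells was checked first. The summed level of 6 CD4+ T cell genes (Cd3d, Cd3e, Cd3g, Cd4, Trac, Cd5) was 3838, 4031, 4195 and 3221 CPM in medLN 1, medLN 2, MLN 1 and MLN 2, which is close to the 3385 to 3557 CPM of the Cxcr3-Foxp3- cells. Ms4a1 had no UMI in any Cxcr3+Foxp3- cell, and neither had the macrophage genes Itgam and Adgre1 nor the hemoglobin genes. Of the CD8 T cell list, Cd8a had none either, but Cd8b1 had 15 UMIs in 10 of the cells (6.33%, against 6.49% of the Cxcr3-Foxp3- cells). This list was at 41.7, 38.2, 0 and 13.5 CPM against 23.8, 22.7, 24.0 and 19.5 CPM in the same order, and its part in the results was not tested. A UMI of Cd3d, Cd3e or Cd3g was missing in 3 of the 158 cells. The one in medLN 1, with 22473 UMIs, had 633 UMIs of Jchain, 340 of Igkc and 16 of Cd79a, genes known from antibody-secreting cells. Both in medLN 2 had Siglech (13 and 19 UMIs), Irf8 (27 and 12) and Tyrobp (19 and 46), genes known from plasmacytoid dendritic cells. They meet the rule and were kept, and counts are also given without them. The B cell marker list was accordingly high in medLN 1 (2962 CPM against 679 CPM in the Cxcr3-Foxp3- cells), with Igkc as its most abundant gene, and lower in medLN 2 (856 against 378 CPM), MLN 1 (381 against 376 CPM) and MLN 2 (203 against 468 CPM). The myeloid list was at 125, 196, 149 and 156 CPM against 101 to 128 CPM. Early-response genes such as Fos and Nr4a1, which can follow handling of tissue, summed to 306 to 460.1 CPM against 379 to 461 CPM. The 2 gates shared 155 barcodes, of which 115 passed in both, and 2 of the Cxcr3+Foxp3- cells were among these. A doublet caller marked 2 of 10026 cells (0.0199%), which is too few to have worked, and doublets were not removed.

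Cxcr3+Foxp3- cells were a small share of the IL-4eGFP- cells in every sample. For medLN 1 the share was 1.73% (Clopper-Pearson 95% interval 1.24 to 2.36), and for medLN 2 it was 2.25% (interval 1.68 to 2.96). For MLN 1 it was 1.86% (interval 1.34 to 2.50), and for MLN 2 it was 1.23% (interval 0.81 to 1.78). The order was not the same in both mice, since MLN 1 lay above medLN 1. The mean was 1.99% ± 0.37 in medLN and 1.54% ± 0.44 in MLN (SD, n = 2 each), a difference of 0.451 percentage points (exact permutation test, two-sided p = 0.667, the smallest possible being 0.333). In the IL-4eGFP+ gate, the shares were 3.58, 4.55, 3.69 and 3.57% in the same order, above those of the IL-4eGFP- gate in each sample. Another 44 IL-4eGFP- cells carried both Cxcr3 and Foxp3 and were not members.

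The threshold of 1 UMI sets who is a member, and the values around it are given as a description. Of the 158 cells, 102 had 1 Cxcr3 UMI, 27 had 2, 15 had 3, 9 had 4, 4 had 5 and 1 had 6. Summed Cxcr3 was 348 CPM in medLN 1, 502 in medLN 2, 386 in MLN 1 and 345 in MLN 2. A UMI of Ccl5 was found in 0.689% of the cells with 0 Cxcr3 UMIs, in 13.7% with 1, in 14.8% with 2 and in 27.6% with 3 or more. Nkg7 went from 1.03% to 16.7, 14.8 and 17.2% and Il2rb from 11.5% to 50, 55.6 and 62.1%. Igfbp4, a gene of naive cells, went the other way, from 56.0% to 11.8, 7.41 and 3.45%. Maf (2.76, 12.7, 22.2 and 41.4%) and Ikzf2 (5.55, 9.80, 25.9 and 31.0%) climbed further with more Cxcr3 UMIs, while the median depth was 3351, 2934, 3082 and 3588 UMIs per cell.

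To ask what these cells express beyond Cxcr3, UMIs were summed per sample and class, and classes were compared within samples. Of 9474 genes tested, 219 were higher (2.31%) and 199 lower (2.1%) in the Cxcr3+Foxp3- cells at an adjusted p under 0.05, together 4.41% (edgeR quasi-likelihood test with Benjamini-Hochberg adjustment), with a median log2 fold change of -0.06 over all tested genes. The split between both directions moved with the cells and the depth used, to 81 higher and 252 lower after each cell was thinned to 1500 UMIs, 151 and 251 without cycling cells, 101 and 176 with at least 2 Cxcr3 UMIs, and 140 and 139 with comparison cells matched on UMIs. Values of both classes did not overlap in any sample, as a reference for such statements below, in 8.32% of the tested genes on the higher and 6.4% on the lower side. Genes of type 1 helper cells, of activation and of tissue entry were among the higher ones, and genes of naive cells among the lower ones. In bulk sums, fewer cells with a transcript and less transcript per cell cannot be told apart, so shares of cells are given beside the levels.

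The type 1 helper program was measured with 18 genes. Of these, 13 had enough counts to be tested, 6 rose, Tbx21 among them, and 0 fell in the Cxcr3+Foxp3- cells, and the median log2 fold change of the 13 was 1.2 against -0.06 over all genes. Tbx21 (chr11:97098071-97115331), which encodes T-bet, was at 41.7 CPM in medLN 1, 32.7 in medLN 2, 22.1 in MLN 1 and 13.5 in MLN 2, from 6, 6, 4 and 2 UMIs. In the Cxcr3-Foxp3- cells it was at 0.142 to 0.902 CPM, so that the classes did not overlap in any sample (log2 fold change 5.28 ± 0.72, SE). Tbx21 lay under the 2.94 CPM of the filter on low counts in all 4 Cxcr3-Foxp3- sums and entered the test through the Cxcr3+Foxp3- sums, as did 21 of the 9474 genes, of which 9 were called. With no filter its log2 fold change was 5.21 (edgeR adjusted p = 5.89e-07). A Tbx21 UMI was seen in 9.49% of the Cxcr3+Foxp3- cells and in 0.14% of the Cxcr3-Foxp3- cells. Il2rb, the β chain of the receptors for IL-2 and IL-15, was at 202 CPM in medLN 1, 295 in medLN 2, 259 in MLN 1 and 223 in MLN 2 against 46.8 to 55.7 CPM (log2 fold change 2.08 ± 0.17, edgeR adjusted p = 8.85e-09). Every Cxcr3+Foxp3- sample lay above every Cxcr3-Foxp3- sample for this gene, and 53.2% against 11.5% of cells had a UMI.

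Il18r1, part of the IL-18 receptor, was at 41.7 CPM in medLN 1, 43.6 in medLN 2, 44.2 in MLN 1 and 33.8 in MLN 2 against 7.10 to 12.5 CPM (log2 fold change 1.98 ± 0.40, edgeR adjusted p = 0.00257). Id2, an inhibitor of E proteins that effector T cells induce, was at 139 CPM in medLN 1, 175 in medLN 2, 166 in MLN 1 and 60.9 in MLN 2 against 23.7 to 34.4 CPM (log2 fold change 2.05 ± 0.24, edgeR adjusted p = 1.65e-06). For both genes the lowest Cxcr3+Foxp3- sample, MLN 2, was still above all Cxcr3-Foxp3- samples. Runx3, a partner of T-bet, was at 118 CPM in medLN 1, 136 in medLN 2, 93.8 in MLN 1 and 47.4 in MLN 2 against 42.1 to 46.4 CPM (log2 fold change 1.02 ± 0.25, edgeR adjusted p = 0.0135), and Bhlhe40, a regulator of cytokine genes, at 6.95 CPM in medLN 1, 16.4 in medLN 2, 27.6 in MLN 1 and 27.1 in MLN 2 against 2.84 to 5.41 CPM (log2 fold change 2.15 ± 0.63, edgeR adjusted p = 0.047). Without MLN 1 3 of these 4 genes no longer passed (edgeR adjusted p = 0.052 for Il18r1, 0.16 for Runx3 and 0.43 for Bhlhe40). With at least 2 Cxcr3 UMIs Il18r1 did not pass either (edgeR adjusted p = 0.31). Runx3 was also lost without medLN 1 (0.06) or medLN 2 (0.21), and Bhlhe40 without medLN 2 (0.10) or MLN 2 (0.21). Stat4 (81.2 to 191 CPM against 93.8 to 109 CPM, edgeR adjusted p = 0.445), which carries the IL-12 signal, did not pass the test.

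Ifng itself, the signature cytokine of type 1 cells, was barely seen. It was at 0 CPM in medLN 1, 5.46 in medLN 2, 5.52 in MLN 1 and 6.77 in MLN 2, each from at most 1 UMI, and had a UMI in 1.90% of the Cxcr3+Foxp3- cells against 0.0255% of the Cxcr3-Foxp3- cells, which is too few for the test. Of the 4 genes Tbx21, Ifng, Nkg7 and Ccl5, 110 of the 158 cells (69.6%) had none, 31 had 1, 12 had 2, 5 had 3 and 0 had all 4. A gene without a captured transcript is not thereby shown to be silent in a cell.

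Of 18 cytotoxic and chemokine genes, 10 had enough counts for the test, and their median log2 fold change was 0.41. Ccl5 (chr11:83525778-83530518, minus strand), a chemokine kept ready in memory and effector T cells, and Nkg7 (chr7:43437073-43438249, plus strand), a protein of cytotoxic granules that Th1 cells also make, had been named as markers of these cells with results of these data known, and are described with no test. Ccl5 was at 334 CPM in medLN 1, 469 in medLN 2, 591 in MLN 1 and 115 in MLN 2 and at 2.34 to 13.1 CPM in the Cxcr3-Foxp3- cells (log2 fold change 5.40 ± 0.34). Nkg7 was at 111 CPM in medLN 1, 104 in medLN 2, 71.8 in MLN 1 and 40.6 in MLN 2 and at 5.79 to 13.9 CPM in the Cxcr3-Foxp3- cells (log2 fold change 2.99 ± 0.36). For both genes the 4 samples of Cxcr3+Foxp3- cells lay above all others and MLN 2 was the lowest of them. Each was found in 16.5% of the Cxcr3+Foxp3- cells, against 0.689% (Ccl5) and 1.03% (Nkg7) of the Cxcr3-Foxp3- cells. After each cell was thinned to 1500 UMIs, leaving out 5 shallower Cxcr3+Foxp3- and 153 shallower Cxcr3-Foxp3- cells, these shares were 11.8 against 0.456% for Ccl5 and 11.1 against 0.69% for Nkg7.

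Gzmk, a granzyme of memory T cells, was at 20.9 CPM in medLN 1, 27.3 in medLN 2, 27.6 in MLN 1 and 6.77 in MLN 2 against 0.581 to 2.42 CPM (log2 fold change 3.95 ± 0.76). It also entered the test through the Cxcr3+Foxp3- sums alone. With no filter on low counts it passed (edgeR adjusted p = 0.00038), and in the filtered test the call was lost without MLN 1 (edgeR adjusted p = 0.089). Of the other 7 tested genes of this list, 0 were called. The killing genes Gzma (6.95, 5.46, 0 and 40.6 CPM in medLN 1, medLN 2, MLN 1 and MLN 2) and Prf1 (0, 16.4, 0 and 0 CPM) did not pass the test, and Gzmb (0, 16.4, 0 and 0 CPM) had too few UMIs for it. Granzymes and perforin were thus near the detection limit in most samples, with Gzma in MLN 2 as the exception, where the Cxcr3-Foxp3- cells had 54.1 CPM.

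Nkg7 holds a letter match to the T-box element that T-bet is known to bind. The octamer TCACACCT was searched on both strands from 250 bases before to 50 after the RefSeq start (GRCm38.p6), and 419 of 32851 such windows (1.28%) hold it. Of 11 type 1 and effector genes asked, 8 had an entry and 1, Nkg7, held the octamer, as the reverse complement AGGTGTGA at 14 bases before the start. The 30 bases before that start on the plus strand (chr7:43437108-43437137) are shown with the octamer in capitals, and lie within the span that the GENCODE vM21 annotation gives the gene:

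Nkg7: agggagggggtagggaAGGTGTGAgaagaa

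The match describes letters in a window and not a site that was measured here.

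**Figure D1:**
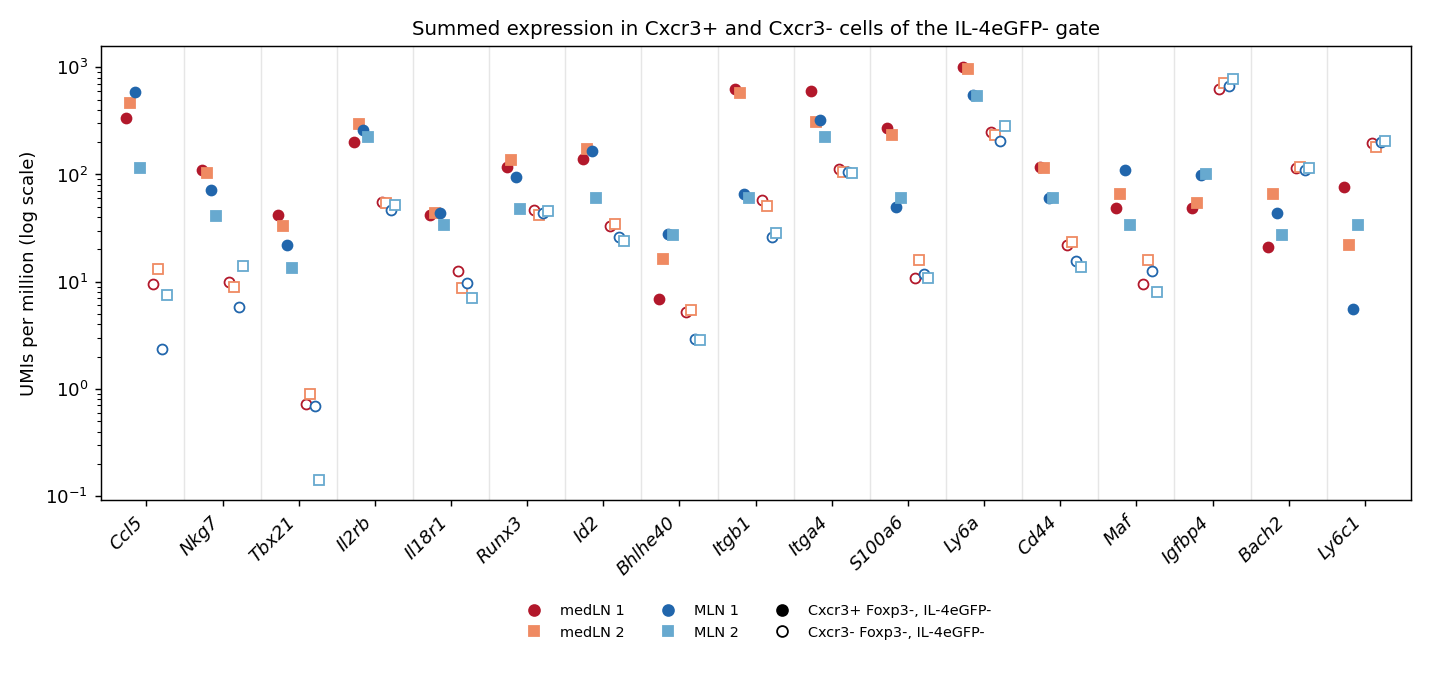
Summed levels (CPM, log axis) of 17 genes in the Cxcr3+Foxp3- cells (filled) and Cxcr3-Foxp3- cells (open) of the IL-4eGFP- gate, 1 point for each node sample, with no error bar since each point is 1 sum. Filled points lie above the open ones of their gene from Ccl5 to Maf and below them for Igfbp4, Bach2 and Ly6c1, and for Itgb1 and S100a6 the medLN points stand far above the MLN points.

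Of 24 genes of activated and memory T cells, 22 were tested, 12 rose, 1 fell and 9 were not called, with a median log2 fold change of 0.92. Cd44, the adhesion receptor by which memory T cells are commonly gated, was at 118 CPM in medLN 1, 115 in medLN 2, 60.7 in MLN 1 and 60.9 in MLN 2 against 13.6 to 23.3 CPM (log2 fold change 2.08 ± 0.27, edgeR adjusted p = 1.09e-05), and was found in 28.5 against 5.45% of cells. Ly6a (Sca-1) was at 1015 CPM in medLN 1, 960.1 in medLN 2, 546 in MLN 1 and 541 in MLN 2 against 203 to 282 CPM (log2 fold change 1.48 ± 0.17, edgeR adjusted p = 1.14e-06). S100a6 (chr3:90612882-90624181), a calcium-binding protein of motile cells, was at 271 CPM in medLN 1, 235 in medLN 2, 49.7 in MLN 1 and 60.9 in MLN 2 against 10.8 to 15.9 CPM (log2 fold change 3.35 ± 0.33, edgeR adjusted p = 1.79e-07). The classes did not overlap for these 3 genes. In each of them both medLN samples lay above both MLN samples, as in 16.8% of the genes tested between nodes. Ly6a and S100a6 were called between nodes (below) and Cd44 was not. S100a4, S100a10 and S100a11 rose as well (log2 fold changes 2.21, 0.75 and 1.64), as did Lgals1 (galectin-1, 0.98), Ahnak (2.88), Anxa2 (1.90) and Tnfrsf4 (OX40, 1.46). Anxa2 was lost without medLN 1 (edgeR adjusted p = 0.30), MLN 1 (0.072) or MLN 2 (0.054), and S100a10 without medLN 1 (0.056), medLN 2 (0.067) or MLN 1 (0.19). Ly6c1 was the member that fell, from 181 to 207 CPM in the Cxcr3-Foxp3- cells to 76.5, 21.8, 5.52 and 33.8 CPM in medLN 1, medLN 2, MLN 1 and MLN 2 (log2 fold change -2.76 ± 0.31, edgeR adjusted p = 1.08e-06). Its neighbor Ly6c2 was at 20.9, 213, 0 and 6.77 CPM, and its call (edgeR adjusted p = 0.0121) was lost without medLN 2, where it is high (log2 fold change 0.86, edgeR adjusted p = 0.85).

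Receptors of migration were measured with 22 genes, of which 15 were tested, 4 rose and 0 fell (median log2 fold change 0.51). Itgb1 (chr8:128685654-128733200), the β1 integrin chain, was at 626 CPM in medLN 1, 573 in medLN 2, 66.2 in MLN 1 and 60.9 in MLN 2 against 26.3 to 57.8 CPM (log2 fold change 2.62 ± 0.28, edgeR adjusted p = 7.19e-07). Itga4, the α4 chain that pairs with β1 for entry into inflamed tissue and with β7 for entry into gut, was at 605 CPM in medLN 1, 311 in medLN 2, 326 in MLN 1 and 223 in MLN 2 against 102 to 111 CPM (log2 fold change 1.59 ± 0.19, edgeR adjusted p = 3e-06). Both chains were higher in every Cxcr3+Foxp3- sample than in any Cxcr3-Foxp3- sample, while Itgb7 was not called (209 to 273 CPM against 248 to 262 CPM, edgeR adjusted p = 0.357). Cxcr6, a receptor of effector cells in lung and liver, was at 20.9 CPM in medLN 1, 16.4 in medLN 2, 33.1 in MLN 1 and 40.6 in MLN 2 against 2.76 to 4.81 CPM (log2 fold change 2.82 ± 0.57, edgeR adjusted p = 0.00246). Ccr9, the receptor for gut homing, was at 0 CPM in medLN 1, 49.1 in medLN 2, 27.6 in MLN 1 and 47.4 in MLN 2 against 3.01 to 8.69 CPM (log2 fold change 2.26 ± 0.56, edgeR adjusted p = 0.0155), with no UMI in medLN 1. Both calls were lost without MLN 1 (edgeR adjusted p = 0.094 for Cxcr6 and 0.13 for Ccr9), and that of Ccr9 also without medLN 2 (0.27) or MLN 2 (0.071).

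Of 16 genes of naive and recirculating cells, all tested, 10 fell and 1 rose, with a median log2 fold change of -0.95. Igfbp4 (chr11:99041244-99054392), a secreted binding protein that naive CD4+ T cells express, fell most, from 624 to 781 CPM to 48.7 CPM in medLN 1, 54.6 in medLN 2, 99.4 in MLN 1 and 101 in MLN 2 (log2 fold change -3.36 ± 0.19, edgeR adjusted p = 2.03e-12). Ccr7 was at 209 CPM in medLN 1, 191 in medLN 2, 254 in MLN 1 and 176 in MLN 2 against 354 to 367 CPM (log2 fold change -0.96 ± 0.16, edgeR adjusted p = 0.000305). In both genes no Cxcr3+Foxp3- sample reached a Cxcr3-Foxp3- sample, and 9.49% against 56.0% of cells had an Igfbp4 UMI. The transcription factors Lef1 (-1.17), Bach2 (-1.64), Satb1 (-1.15) and Foxp1 (-0.94) fell, as did Dapl1, Il6ra and Actn1, the last 3 losing the call without MLN 1 (edgeR adjusted p = 0.15, 0.10 and 0.12) and Actn1 also without medLN 2 (0.055). Tcf7 (426 to 524 CPM against 527 to 571 CPM, edgeR adjusted p = 0.113) and Klf2 (439.8 to 841 CPM against 588 to 621 CPM, edgeR adjusted p = 0.831) were not called. Il7r, the survival receptor shared by naive and memory cells, rose (log2 fold change 0.78 ± 0.19, edgeR adjusted p = 0.0128), a call lost without MLN 1 (edgeR adjusted p = 0.14), medLN 1 (0.12) or medLN 2 (0.15). It was also lost with at least 2 Cxcr3 UMIs (edgeR adjusted p = 0.22).

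Genes of other helper subsets were looked at next. Transcripts of Il4, Il5, Il13, Il10, Il17a, Il22 and Zbtb16 had no UMI in any Cxcr3+Foxp3- cell, and 0 of 158 cells allows a share of up to 1.90% with a captured transcript, which does not limit the share that express the gene. Of 12 tested genes of follicular helper cells, 6 rose and 0 fell (median log2 fold change 0.99), namely Icos (1.39), Tigit (3.02), Izumo1r (1.11), Tox2 (2.90), Sh2d1a (0.87) and Slamf6 (0.74). Most of these are also made by other activated T cells, and the factors that define follicular helper cells were not called, with Bcl6 at 5.46 to 40.6 CPM against 14.9 to 23.7 CPM (edgeR adjusted p = 0.94) and Cxcr5 at 6.77 to 16.6 CPM against 4.21 to 6.1 CPM (edgeR adjusted p = 0.363). Without MLN 1 the calls of Tox2 (edgeR adjusted p = 0.20), Sh2d1a (0.40) and Slamf6 (0.17) were lost, without medLN 2 those of Sh2d1a (0.12) and Slamf6 (0.19), without MLN 2 that of Tox2 (0.19) and without medLN 1 that of Slamf6 (0.09). The call of Slamf6 was also lost with at least 2 Cxcr3 UMIs (edgeR adjusted p = 0.52). Maf, a factor of follicular helper, Th2 and IL-10 producing cells, was at 48.7 CPM in medLN 1, 65.5 in medLN 2, 110.4 in MLN 1 and 33.8 in MLN 2 against 7.96 to 15.9 CPM (log2 fold change 2.32 ± 0.34, edgeR adjusted p = 6.32e-05), and Il4ra, the IL-4 receptor, fell (log2 fold change -1.40 ± 0.21, edgeR adjusted p = 8.72e-05). Gata3 was at 16.4 to 54.1 CPM against 26.8 to 34.4 CPM and was not called (edgeR adjusted p = 0.915).

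Of 9 tested genes of regulatory T cells, 3 rose and 0 fell although cells with Foxp3 had been left out (median log2 fold change 0.48). Ikzf2 (Helios) was at 6.95 CPM in medLN 1, 81.8 in medLN 2, 177 in MLN 1 and 135 in MLN 2 against 20.9 to 43.4 CPM (log2 fold change 1.42 ± 0.35, edgeR adjusted p = 0.0152), Ctla4 at 41.7 CPM in medLN 1, 76.4 in medLN 2, 116 in MLN 1 and 122 in MLN 2 against 22.9 to 32.5 CPM (log2 fold change 1.5 ± 0.28, edgeR adjusted p = 0.00104) and Nrp1 at 69.5 CPM in medLN 1, 54.6 in medLN 2, 11 in MLN 1 and 40.6 in MLN 2 against 3.41 to 13.9 CPM (log2 fold change 2.24 ± 0.44, edgeR adjusted p = 0.00196). Ikzf2 overlapped between the classes through medLN 1 and Nrp1 through MLN 1. The call of Ikzf2 was lost without MLN 1 (log2 fold change 0.95, edgeR adjusted p = 0.54) or MLN 2 (0.11), and with DESeq2 (DESeq2 adjusted p = 0.86). That of Ctla4 was lost without MLN 1 (0.094). Il2ra (6.95, 32.7, 155 and 0 CPM), Tnfrsf18 and Ikzf4 were not called. Foxp3 is sparsely captured, so that a cell with 0 Foxp3 UMIs can still be a regulatory T cell, and how many of the 158 are was not tested.

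Of 17 tested interferon-stimulated genes, 1 rose (Ifi27l2a, 792 to 1821 CPM against 657 to 925 CPM, log2 fold change 0.54 ± 0.14, edgeR adjusted p = 0.0276) and 0 fell, and their median log2 fold change was 0.33. The call of Ifi27l2a was lost without medLN 1 (edgeR adjusted p = 0.073), medLN 2 (0.23) or MLN 1 (0.49). Of 3 tested genes of type 17 cells, 0 were called. Of 4 innate-like and NK receptor genes, 1 was called, Tyrobp, which came almost wholly from medLN 2 (0 CPM in medLN 1, 355 in medLN 2, 11 in MLN 1 and 6.77 in MLN 2), the sample with 2 of the cells lacking CD3 RNA, and turned to -0.43 without it. Of 7 early-response genes, Nr4a1, which T cell receptor signals induce, fell to 0, 0, 5.52 and 20.3 CPM from 34.8 to 45.2 CPM (edgeR adjusted p = 0.00206), a call lost without MLN 1 (edgeR adjusted p = 0.078). Of 7 B cell markers, Igkc was called through medLN 1 (2364 CPM in medLN 1, 32.7 in medLN 2, 5.52 in MLN 1 and 0 in MLN 2), where 1 cell held most of its UMIs, and without medLN 1 it was not (log2 fold change 1.05, edgeR adjusted p = 0.67).

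By size of change, further genes led both directions. Higher were Ctla2a (27.1 to 120.0 CPM against 5.81 to 10.7 CPM, log2 fold change 2.81 ± 0.40), an inhibitor of cathepsins in activated T cells, Casp1 (27.1 to 111 CPM against 7.72 to 9.58 CPM, 2.64 ± 0.40), the inflammasome protease, Adam19 (87.3 to 110.4 CPM against 13.1 to 19.6 CPM, 2.44 ± 0.26), a sheddase, and Hopx (74.4 to 160.1 CPM against 18.3 to 25.5 CPM, 2.21 ± 0.25), a factor that supports survival of Th1 effector cells. These 4 genes kept the call whichever sample was left out. Tyms, of nucleotide synthesis (2.27 ± 0.34), and the histone gene Hist1h2ap (2.78 ± 0.41) belong to dividing cells, and reads of the histone gene cannot be told apart from those of its near-identical copies. Lower were Pdlim4 (-2.42), Snhg15 (-2.30), Als2cl (-2.02), Gm13546 (-1.96), Klhdc2 (-1.80), Klhdc1 (-1.66), Sesn1 (-1.59) and H2-DMa (-1.67). H2-DMa, which loads peptides on MHC class II and is seen here in cells of both classes, was at 76.5 CPM in medLN 1, 251 in medLN 2, 116 in MLN 1 and 135 in MLN 2 against 356 to 442 CPM, and was lower in all 4 samples. Without MLN 1 the calls of Hist1h2ap (edgeR adjusted p = 0.075), Klhdc1 (0.13) and Sesn1 (0.058) were lost.

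The comparison of classes depended most on MLN 1. Without it the count of called genes went from 418 to 131, of which 129 were among the 418, while it was between 131 and 433 over the samples left out and 454 without the 3 cells lacking CD3 RNA.

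Cell cycle genes were higher in the Cxcr3+Foxp3- cells for 14 of 15 tested genes (median log2 fold change 2.36), the exception being Tubb5. This count fell to 2 without MLN 1, 4 without MLN 2, 2 with DESeq2, 8 with comparison cells matched on UMIs, 7 with at least 2 Cxcr3 UMIs and 2 after thinning to 1500 UMIs. Top2a, which untangles DNA in mitosis, was at 0 CPM in medLN 1, 60.0 in medLN 2, 188 in MLN 1 and 582 in MLN 2 against 18.9 to 30.5 CPM (log2 fold change 2.65 ± 0.39, edgeR adjusted p = 6.73e-05), and Mki67, the proliferation marker Ki-67, at 13.9 CPM in medLN 1, 27.3 in medLN 2, 132 in MLN 1 and 365 in MLN 2 against 16 to 23.2 CPM (log2 fold change 2.36 ± 0.39, edgeR adjusted p = 0.00026). MLN 2 was highest and medLN 1 was at or below the Cxcr3-Foxp3- cells in both genes, and without MLN 1 neither was called (edgeR adjusted p = 0.060 for Top2a and 0.078 for Mki67).

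A UMI of Mki67, Top2a or Birc5 was found in 2 of 39 Cxcr3+Foxp3- cells of medLN 1 (5.13%, Clopper-Pearson 95% interval 0.627 to 17.3), 6 of 50 of medLN 2 (12%), 7 of 42 of MLN 1 (16.7%) and 9 of 27 of MLN 2 (33.3%). In the Cxcr3-Foxp3- cells the shares were 3.03, 3.59, 2.76 and 2.59%. The mean was 16.8% ± 12 against 2.99% ± 0.441 (SD, n = 4), and the share was higher in all 4 samples, at the smallest p that 4 pairs allow (exact permutation test on pairs, two-sided p = 0.125). One of both positive cells of medLN 1 was the cell with Jchain and without CD3 RNA, which had 1 Mki67 UMI. Without cells lacking CD3 RNA, medLN 1 had 1 of 38 cells (2.63%, against 3.01% of its Cxcr3-Foxp3- cells), and the share was higher in 3 of 4 samples (16.3% ± 12.8 against 2.89% ± 0.486, exact permutation p = 0.25). Both MLN samples lay above both medLN samples, 25.0% ± 11.8 against 8.56% ± 4.86 (SD, n = 2 each, exact permutation p = 0.333, the smallest possible). Cycling cells are deep, and they held 17.7, 22.4, 30.7 and 60.7% of the Cxcr3+Foxp3- UMIs in medLN 1, medLN 2, MLN 1 and MLN 2. After thinning to 1500 UMIs per cell, 0 of 39, 1 of 47, 5 of 40 and 7 of 27 cells remained positive (0, 2.13, 12.5 and 25.9%), against 1.24 to 2.00% of the Cxcr3-Foxp3- cells, so that medLN 1 no longer showed a higher share (paired exact permutation p = 0.375). In the IL-4eGFP+ gate, 25.7 to 31.9% of the Cxcr3+Foxp3- cells cycled by this measure. MLN cells of the IL-4eGFP- gate thus came nearest to that level.

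**Figure D2:**
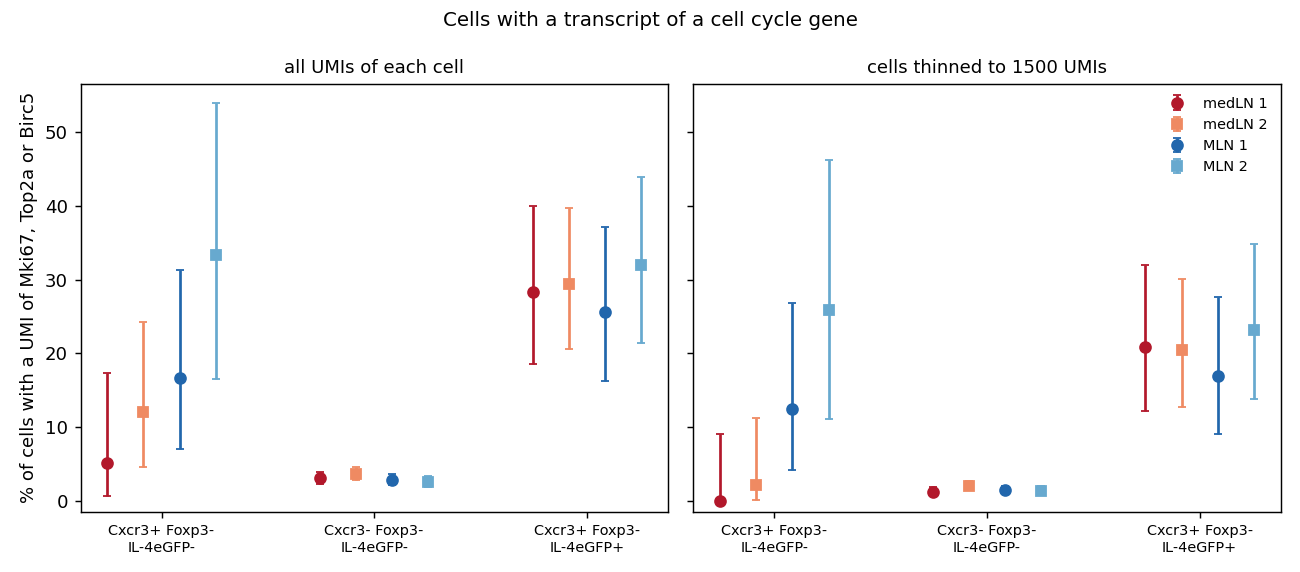
Percent of cells with a UMI of Mki67, Top2a or Birc5 in each node sample, for all UMIs (left) and for cells thinned to 1500 UMIs (right), with Clopper-Pearson 95% intervals as bars. In the Cxcr3+Foxp3- cells of the IL-4eGFP- gate the points run from 5.13% in medLN 1 to 33.3% in MLN 2, whereas the Cxcr3-Foxp3- cells stay between 2.59 and 3.59%.

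Next, the Cxcr3+Foxp3- cells of medLN and MLN were compared. Of 2673 genes tested, 13 were higher in medLN (0.486%) and 33 lower (1.23%), together 46 or 1.72% (edgeR quasi-likelihood test, 2 samples against 2), and 93 with mouse as a replicate block. At an unadjusted p under 0.05, 324 genes passed. The 2 medLN values lay above both MLN values in 16.8% of the tested genes and below them in 25.6%. Whether such a difference was particular to the Cxcr3+Foxp3- cells was asked with the interaction of class and node, in which 72 of 10221 genes passed (0.704%, fitted with the hashtag sample as a block), 24 of them more medLN-sided in the Cxcr3+Foxp3- cells and 48 more MLN-sided. Without the cells lacking CD3 RNA these counts were 13 and 51.

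Itgb1 was the clearest difference. It was at 626 and 573 CPM in the 2 medLN samples and at 66.2 and 60.9 CPM in the 2 MLN samples of Cxcr3+Foxp3- cells. In the Cxcr3-Foxp3- cells it was at 57.8 and 50.8 CPM in medLN and at 26.3 and 28.6 CPM in MLN. The nodes did not overlap in either class, but the log2 difference of 3.31 ± 0.32 in the Cxcr3+Foxp3- cells (edgeR adjusted p = 2.13e-07) exceeded that of the Cxcr3-Foxp3- cells by 2.34 ± 0.36 (edgeR adjusted p = 9.18e-08). Both calls held whichever sample was left out, and without cycling cells the node difference was 2.92 ± 0.34. After thinning to 1500 UMIs per cell it was 2.83 ± 0.42 and not called (edgeR adjusted p = 0.104), while the interaction was (2.22, edgeR adjusted p = 0.0154).

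S100a6 was at 271 CPM in medLN 1, 235 in medLN 2, 49.7 in MLN 1 and 60.9 in MLN 2 in the Cxcr3+Foxp3- cells, so that both medLN samples stood above both MLN samples (log2 difference 2.28 ± 0.39, edgeR adjusted p = 0.00055, interaction 2.06 ± 0.49, edgeR adjusted p = 0.00805). Ly6a showed the same order with a smaller difference (0.96, edgeR adjusted p = 0.0152, interaction 0.93, edgeR adjusted p = 0.0226). Its difference between nodes was 0.84 without medLN 1 and 1.11 without medLN 2, and it was called in neither case. With DESeq2 (0.96, DESeq2 adjusted p = 0.076) and after thinning to 1500 UMIs (0.34, edgeR adjusted p = 0.837) Ly6a was not called either. The call of S100a6 between nodes was lost without MLN 2 (log2 difference 2.38, edgeR adjusted p = 0.24), and its interaction without medLN 1 (0.51) or MLN 1 (0.052). The interaction of Ly6a was lost without medLN 1 (0.79), medLN 2 (0.48) or MLN 2 (0.82).

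S1pr1, the receptor that guides T cells out of nodes, was at 271 CPM in medLN 1, 158 in medLN 2, 82.8 in MLN 1 and 67.7 in MLN 2 (1.57, edgeR adjusted p = 0.0324). Gpr183, a receptor for oxysterols that positions activated T cells, was at 236 CPM in medLN 1, 142 in medLN 2, 66.2 in MLN 1 and 60.9 in MLN 2 (1.64, edgeR adjusted p = 0.0324). Selplg, the P-selectin ligand PSGL-1, was at 452 CPM in medLN 1, 584 in medLN 2, 248 in MLN 1 and 284 in MLN 2 (1.06, edgeR adjusted p = 0.0273) and Il7r at 626 CPM in medLN 1, 518 in medLN 2, 359 in MLN 1 and 217 in MLN 2 (1.07, edgeR adjusted p = 0.0395). In all 4 genes both medLN samples lay above both MLN samples, while the Cxcr3-Foxp3- cells were even, at 173 to 182 CPM, 108 to 122 CPM, 452 to 487 CPM and 199 to 233 CPM, and the interaction passed for each (edgeR adjusted p = 0.00471, 0.00784, 0.0369 and 0.00731). These 4 interaction calls were all lost without medLN 1 (edgeR adjusted p = 0.95, 1.0, 0.47 and 0.51) or MLN 2 (0.20, 0.29, 0.18 and 0.61), and those of Selplg and Il7r also without medLN 2 (0.86 and 0.21). Tsc22d3, a glucocorticoid-induced gene, was at 90.4 CPM in medLN 1, 125 in medLN 2, 33.1 in MLN 1 and 20.3 in MLN 2 (2.06, edgeR adjusted p = 0.0292). Tsc22d3 had at most 6 UMIs in each MLN sum and entered the test through the medLN sums, where it is high. With no filter on low counts it was called as well. It was not called without cycling cells (1.35, edgeR adjusted p = 0.474), nor without medLN 1 (2.19) or medLN 2 (1.91). Without medLN 1 the node differences of S1pr1 (1.07), Gpr183 (1.16), Selplg (1.16) and Il7r (0.85) were not called either. The same held for Selplg without medLN 2 (0.98). Klf2, which drives S1pr1, was at 841 CPM in medLN 1, 726 in medLN 2, 519 in MLN 1 and 439.8 in MLN 2 and did not pass (0.80, edgeR adjusted p = 0.0891). Without cycling cells, S1pr1 (1.09, edgeR adjusted p = 0.344), Gpr183 (1.29, 0.248), Selplg (0.74, 0.286) and Il7r (0.55, 0.518) no longer passed between nodes, while Ly6a did (0.89, 0.0196).

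By list, 3 of 9 tested migration genes were higher in medLN and 0 lower (Itgb1, Selplg and Gpr183, median log2 difference 0.37), as were 2 of 13 naive and recirculation genes (Il7r and S1pr1, 0.20) and 3 of 16 activation genes (Itgb1, which is on 2 lists, S100a6 and Ly6a, 0.38), with a median of 0.00 over all genes. Of 6 tested type 1 genes, 0 were called (median 0.64). Il2rb (edgeR adjusted p = 0.936) did not pass between nodes, and Tbx21, at 6 and 6 UMIs in medLN and 4 and 2 in MLN, was too low to test.

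Of 12 tested cell cycle genes, 8 were lower in medLN and 0 higher (median -2.24). The count of 8 fell to 1 with DESeq2 and to 0 with at least 2 Cxcr3 UMIs. It was also 0 without cycling cells, without the deepest 5% of cells and after thinning to 1500 UMIs. Mki67, Birc5, Rrm2 and Ccnb2 had at most 5 UMIs in each medLN sum and entered the test through the MLN sums. For such genes the filter itself favors this direction, and with no filter on low counts they were called as well. Stmn1, a regulator of microtubules, was at 0 CPM in medLN 1, 76.4 in medLN 2, 177 in MLN 1 and 433 in MLN 2 (-2.73 ± 0.54, edgeR adjusted p = 0.00388), and Hmgb2, a chromatin protein of dividing cells, at 229 CPM in medLN 1, 469 in medLN 2, 806 in MLN 1 and 1773 in MLN 2 (-1.76 ± 0.29, edgeR adjusted p = 0.000482). MLN 2 was highest in both. With DESeq2 neither Stmn1 (-2.96, DESeq2 adjusted p = 0.9985) nor Hmgb2 (-1.80, DESeq2 adjusted p = 0.390) was called between nodes. The interaction passed for Stmn1 (-2.82, edgeR adjusted p = 9.18e-08), Hmgb2 (-1.54, edgeR adjusted p = 1.19e-06) and Top2a (-3.20, edgeR adjusted p = 3.74e-08), that of Hmgb2 being lost without medLN 1 (0.23) or MLN 2 (0.060). Ube2c, Ccnb2 and Hist1h2ag had no UMI in medLN and were at 93.8 and 359, 99.4 and 94.7, and 66.2 and 60.9 CPM in MLN. They entered the test through the MLN sums alone, as did Hist1h1b, Hist1h2ae and Cdca8, with at most 1 UMI in each medLN sum. With no filter on low counts these genes were called as well. Of the others by size, Hist1h1b, Hist1h2ae, Cdca8, Birc5, Rrm2, Pclaf and Mki67 were lower in medLN, and the histone genes share reads with near-identical copies. Ikzf2 was more MLN-sided in the Cxcr3+Foxp3- than in the Cxcr3-Foxp3- cells (interaction -2.36 ± 0.47, edgeR adjusted p = 0.000292), from 6.95 CPM in medLN 1, 81.8 in medLN 2, 177 in MLN 1 and 135 in MLN 2, but the low value of medLN 1 carried this call, which was lost without that sample (edgeR adjusted p = 0.40).

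Another set went with the cells lacking CD3 RNA. Mzb1 (389 CPM in medLN 1, 87.3 in medLN 2, 0 in MLN 1 and 0 in MLN 2), Xbp1 (445 CPM in medLN 1, 164 in medLN 2, 66.2 in MLN 1 and 67.7 in MLN 2), H2-Ab1 (69.5 CPM in medLN 1, 81.8 in medLN 2, 11 in MLN 1 and 0 in MLN 2), Cd74 (167 CPM in medLN 1, 415 in medLN 2, 116 in MLN 1 and 13.5 in MLN 2) and Grn (62.6 CPM in medLN 1, 142 in medLN 2, 16.6 in MLN 1 and 20.3 in MLN 2) were higher in medLN and are genes of antibody-secreting or antigen-presenting cells. Mzb1, H2-Ab1 and Grn had at most 3 UMIs in each MLN sum and entered the test through the medLN sums. Without the 3 cells the interaction of Cd74 turned to -3.44, and 33 genes were called between nodes in place of 46.

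The node comparison rested on few cells. It gave 2 genes without MLN 2 (of the 46, Itgb1, with 44 of the 46 tested, so that the other calls named here between nodes were lost without that sample, except those of Cdca8 and Hist1h2ag, which could not be tested), 204 without MLN 1, 6 without cycling cells (of the 46, Itgb1, Ly6a, S100a6 and Ybx1) and 0 when cells were thinned to 1500 UMIs, with 71 at an unadjusted p under 0.05. The interaction gave 26 genes without medLN 1, 35 without medLN 2, 147 without MLN 1 and 23 without MLN 2, with Itgb1, Stmn1 and Top2a among the calls each time. With no replicate block it gave 7 genes (H2afv, H2afz, Hist1h2ae, Hist1h2ap, Hmgn2, Itgb1 and Ybx1) and after thinning 1 (Itgb1), so that under both settings each interaction call given above but that of Itgb1 was lost. Both the share of cycling cells and the node moved together in these samples, and the part of the cell cycle in the other differences was tested only by leaving cycling cells out.

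**Figure D3:**
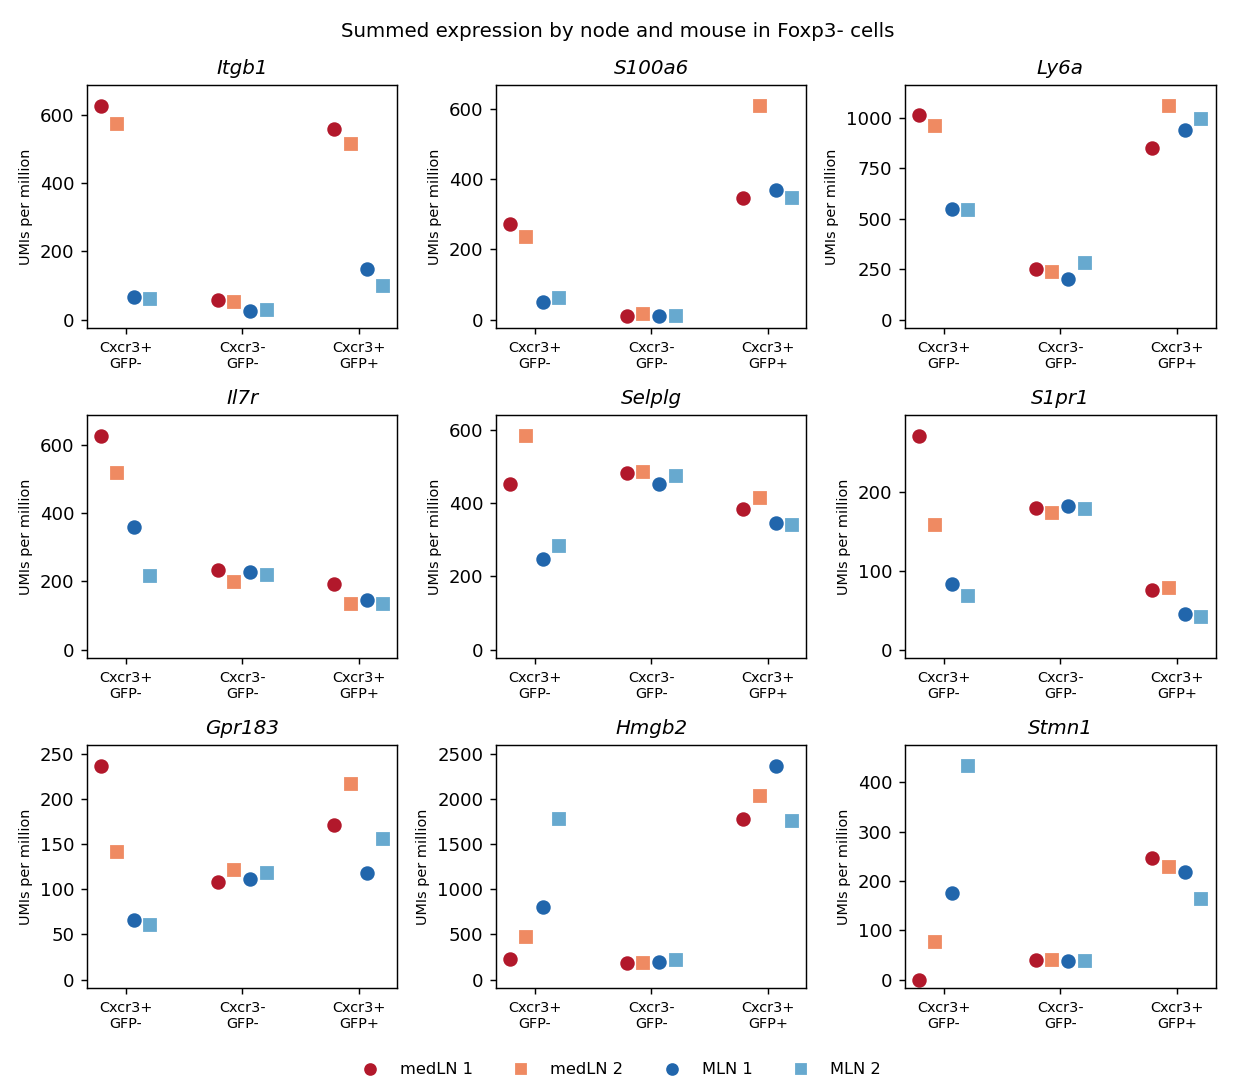
Summed levels (CPM, linear axis) of 9 genes in medLN (red) and MLN (blue) samples of Cxcr3+Foxp3- and Cxcr3-Foxp3- cells of the IL-4eGFP- gate (GFP-) and Cxcr3+Foxp3- cells of the IL-4eGFP+ gate (GFP+), 1 point for each sum. In the Cxcr3+ GFP- cells Itgb1 falls from 626 and 573 in medLN to 66.2 and 60.9 in MLN, while Hmgb2 and Stmn1 are highest in MLN 2.

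Cxcr3+Foxp3- cells also occurred in the IL-4eGFP+ gate and were compared next. Of 4514 genes tested, 154 were higher (3.41%) and 114 lower (2.53%) in the IL-4eGFP- cells, together 268 or 5.94% (edgeR quasi-likelihood test within samples). All 4 values of one gate lay above all 4 of the other in 4.34% of the genes for the IL-4eGFP- gate and in 8.17% for the IL-4eGFP+ gate. Il4 was at 0 CPM in all 4 IL-4eGFP- samples and at 73.5 to 121 CPM in the IL-4eGFP+ samples, which the gate itself sets. Type 1 genes were found in both gates. Tbx21 was at 20.5, 35.1, 33.1 and 13.7 CPM in the IL-4eGFP+ cells of medLN 1, medLN 2, MLN 1 and MLN 2, Nkg7 at 34.2, 142, 104 and 104 CPM (log2 difference -0.11 ± 0.36) and Il2rb at 203, 233, 258 and 224 CPM (0.20 ± 0.17, edgeR adjusted p = 0.553). These ranges overlapped those of the IL-4eGFP- cells. Tbx21 was found in 9.49% of IL-4eGFP- and 12.7% of IL-4eGFP+ cells, Nkg7 in 16.5 and 15.9% and Ccl5 in 16.5 and 14.9%. These shares are not corrected for depth. The median was 3595, 3767, 3471.5 and 4841.5 UMIs per IL-4eGFP+ cell of medLN 1, medLN 2, MLN 1 and MLN 2. Per IL-4eGFP- cell it was 2941, 3135, 3067.5 and 3087 UMIs in the same order.

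Ccl5 differed in level, with 52.5, 105, 161 and 99.1 CPM in the IL-4eGFP+ cells against 334, 469, 591 and 115 CPM (log2 difference 1.90 ± 0.29), higher in the IL-4eGFP- cells within each sample although MLN 2 of the one overlapped MLN 1 of the other. Among cells with at least 2 Cxcr3 UMIs this difference was 0.57. Il18r1 (2.02, edgeR adjusted p = 0.0103) and Txk, a T cell kinase (1.35, edgeR adjusted p = 0.0366), were higher in the IL-4eGFP- cells, while Id2 (-1.22, edgeR adjusted p = 0.00329) and Bhlhe40 (-1.49, edgeR adjusted p = 0.0349) were lower. Of 8 tested type 1 genes, 2 were thus higher and 2 lower (median 0.61). Bhlhe40 lay under the filter on low counts in each IL-4eGFP- sum and entered the test through the IL-4eGFP+ sums, where it is high. Il18r1 reached the filter in each IL-4eGFP- sum, where it is high, and these sums sufficed for its entry. The counts of 2 and 2 therefore rest in part on which gate let a gene into the test.

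Naive and recirculation genes were higher in the IL-4eGFP- cells, 10 of 14 tested and 0 lower (median 1.16 against 0.00 over all genes), a count that was 3 without medLN 2, 5 without MLN 1, 2 with at least 2 Cxcr3 UMIs and 4 after thinning. Ccr7 was at 209, 191, 254 and 176 CPM against 95.8, 68.4, 75.6 and 63.2 CPM (1.57 ± 0.20, edgeR adjusted p = 0.000198), and Il7r at 626, 518, 359 and 217 CPM against 192, 133, 146 and 135 CPM (1.57 ± 0.21, edgeR adjusted p = 0.000335). All IL-4eGFP- samples were above all IL-4eGFP+ samples in these genes. Actn1 (1.68), Igfbp4 (1.63), S1pr1 (1.32), Klf2 (1.2), Lef1 (0.91), Foxo1 (1.13) and Tcf7 (0.62) had the same direction and passed, of which Actn1 kept the call with each sample left out. Other genes higher by size were Sidt1 (2.58), Itm2a (2.33), the interferon-stimulated genes Ifit1 (2.01), Slfn8 (1.71) and Samd9l (1.70), the adaptor Trat1 (1.99), Smad7, an inhibitor of TGFβ signals (1.86), and Gm2682, Ssbp2 and Gramd3 (1.85, 1.81 and 1.79). Among these, Sidt1, Smad7 and Ssbp2 lay under the filter on low counts in each IL-4eGFP+ sum. They entered the test through the IL-4eGFP- sums, where they are high. With no filter on low counts Sidt1 and Smad7 were called as well. Of 12 tested interferon-stimulated genes, 3 were higher (Ifit1, Isg15 and Bst2) and 0 lower, with a median of 0.62. Without cells lacking CD3 RNA, Bst2 went from 0.97 to 0.63 and was not called (edgeR adjusted p = 0.142). The 2 such cells of medLN 2 in the IL-4eGFP- gate had 26 and 22 Bst2 UMIs.

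Of 19 tested activation genes, 0 were higher and 8 lower (median -0.31), a count that was 3 without medLN 2, 5 without MLN 1, 5 with DESeq2 and 3 with at least 2 Cxcr3 UMIs. S100a10, S100a11, Tnfrsf4 and Ahnak were lower, as were Anxa2 at 76.5, 21.8, 16.6 and 27.1 CPM against 289.8, 244, 385 and 255 CPM (-2.98 ± 0.32, edgeR adjusted p = 7.36e-05), Lgals1 (-1.71), Vim (-1.51) and S100a6 (-1.43). After thinning to 1500 UMIs, Vim (-0.44, edgeR adjusted p = 0.206), Tnfrsf4 (-0.45, 0.474) and Ahnak (-0.34, 0.676) were not called, and the others were. Of 12 tested migration genes, 1 was higher, Itga4 (0.89, edgeR adjusted p = 0.0216), and 3 were lower (median -0.07). Of the lower ones, Cxcr6 was at 20.9, 16.4, 33.1 and 40.6 CPM against 139, 163, 132 and 140.1 CPM (-2.26 ± 0.30, edgeR adjusted p = 0.000335), and the receptors Ccr4 (-1.93) and Ccr2 (-2.15) were the others. The groups did not overlap for Anxa2 and Cxcr6. Of 5 tested type 2 genes, 1 was higher, Il4ra (1.31, edgeR adjusted p = 0.0198), and 3 were lower, one being Il4 (median -1.46). Gata3, the factor of Th2 cells, was at 48.7, 16.4, 33.1 and 54.1 CPM against 98.1, 142, 106 and 137 CPM (-1.60 ± 0.32, edgeR adjusted p = 0.00776), and Maf was lower too (-1.46). Of 15 cell cycle genes, 5 were lower (Mki67, Cdk1, Ccnb1, Mcm5 and Hmgb2, median -1.20), a count that was 0 without medLN 2 or MLN 1, 2 without medLN 1 and 14 without MLN 2. By size, Ifitm2 (0, 10.9, 0 and 0 CPM against 54.3 to 95.8 CPM), Epas1, which encodes HIF-2α (13.9, 10.9, 0 and 0 CPM against 83.2 to 114 CPM), Lgals7 (0, 10.9, 11 and 13.5 CPM against 59.3 to 259.6 CPM), Cd160 (6.95, 5.46, 5.52 and 0 CPM against 47.9 to 68.5 CPM), Marcksl1, Asb2, Rbpj, Ccnb1 and Ccr2 were lower in the IL-4eGFP- cells. Ifitm2, Epas1, Lgals7 and Cd160 had at most 2 UMIs in each IL-4eGFP- sum. They entered the test through the IL-4eGFP+ sums, where they are high, as did Il4 and Rbpj, the latter with at most 4 UMIs in each IL-4eGFP- sum. With no filter on low counts these genes were called as well. Itgb1 and Ly6a, in contrast, were not called between gates (-0.04, edgeR adjusted p = 0.944, and -0.25, edgeR adjusted p = 0.467), and in the IL-4eGFP+ cells Itgb1 was likewise higher in medLN (559 and 514 CPM) than in MLN (149 and 97.4 CPM). The count of called genes ranged from 50 without medLN 2 to 577 without MLN 2, was 124 without medLN 1 and 99 without MLN 1, and was 327 without cells lacking CD3 RNA. Of the genes named between gates, Ccr7, Il7r, Actn1, Sidt1, Itm2a, Ifit1, Slfn8, Gm2682, Gramd3, Id2, Anxa2, Lgals1, Vim, Cxcr6, Ifitm2, Epas1, Lgals7, Cd160 and Marcksl1 kept the call with each sample left out. Samd9l lost it without MLN 1 (edgeR adjusted p = 0.096), and Asb2 (0.069), Ccr4 (0.14), Klf2 (0.056), S100a11 (0.14) and Il4ra (0.26) lost it without medLN 2. Il18r1, Txk, Bhlhe40, Igfbp4, S1pr1, Lef1, Foxo1, Tcf7, Trat1, Smad7, Ssbp2, Isg15, Bst2, S100a6, S100a10, Tnfrsf4, Ahnak, Gata3, Maf, Rbpj, Itga4, Mki67, Cdk1, Ccnb1, Mcm5, Hmgb2 and Ccr2 each lost it with 2 or 3 of the samples, left out singly.

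**Figure D4:**
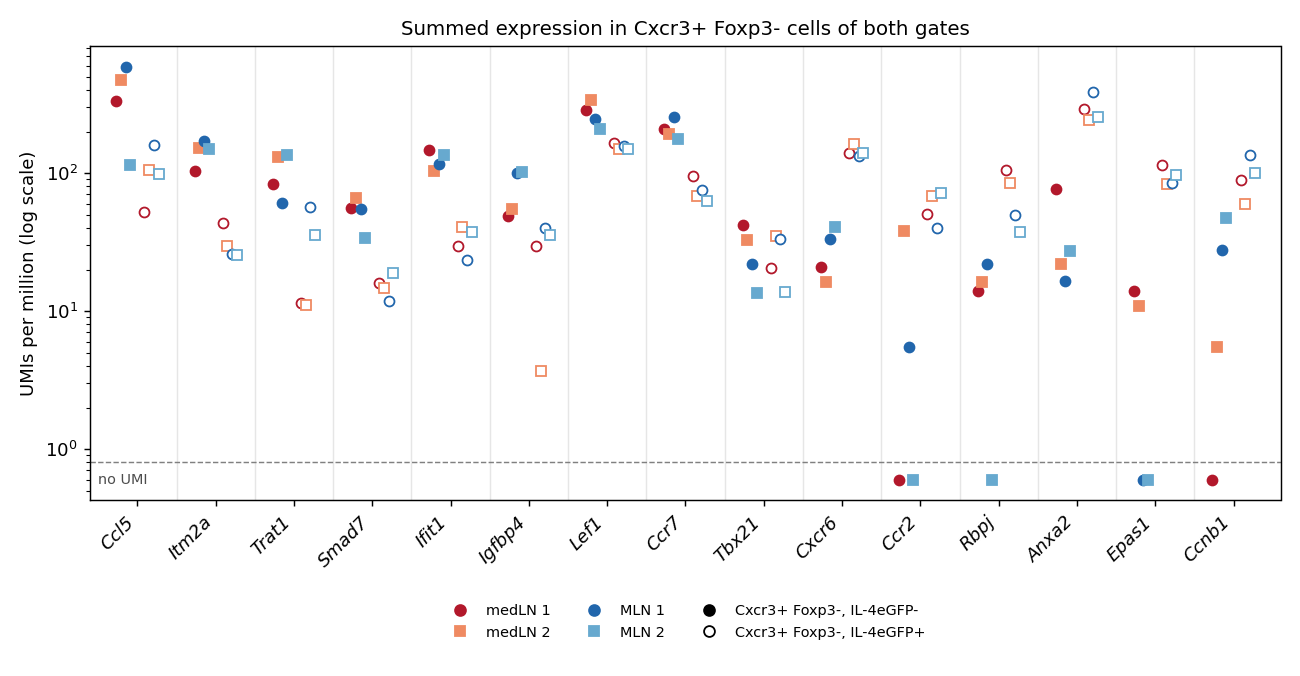
Summed levels (CPM, log axis, samples without a UMI in the band under the dashed line) of 15 genes in Cxcr3+Foxp3- cells of the IL-4eGFP- (filled) and IL-4eGFP+ gate (open), 1 point for each node sample. Itm2a, Ifit1, Lef1 and Ccr7 are higher and Cxcr6, Anxa2 and Epas1 lower in the IL-4eGFP- cells in all 4 samples, and Tbx21 overlaps.

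Finally, the Cxcr3+Foxp3- cells were not uniform. Leiden clustering of the 158 cells alone, without Cxcr3, Foxp3 and T cell receptor genes, gave 5 subgroups, which are described with no test since their leading genes are those that made them. Subgroup 1, with 70 cells (44.3%), was led by Ly6a, Il7r, Itgb1, Klf2 and Runx3, and held most of the cells with Nkg7 (20 cells, 28.6% of it) and Ccl5 (16 cells, 22.9%). Subgroup 2, with 25 cells (15.8%), was led by Tnfrsf4, Izumo1r, Ctla4, Ikzf2 and Il2ra, of which Ctla4 and Ikzf2 were each found in 52.0% of its cells and Tbx21 in 0. Subgroup 3, with 44 cells (27.8%), was led by Nsg2, Lef1, Rgs10, Rbm3 and Psmb5, and had Nkg7 in 0 and Ccl5 in 2.27% of its cells. Subgroup 4, with 13 cells (8.23%), was led by the interferon-stimulated genes Ifit1, Isg15 and Rtp4, and 38.5% of its cells had Tbx21, as many had Ccl5, and as many had Cxcr6. Subgroup 5, with 6 cells, was led by Hmgb2, Tuba1b and Top2a and had a median of 14852 UMIs per cell.

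**Figure D5:**
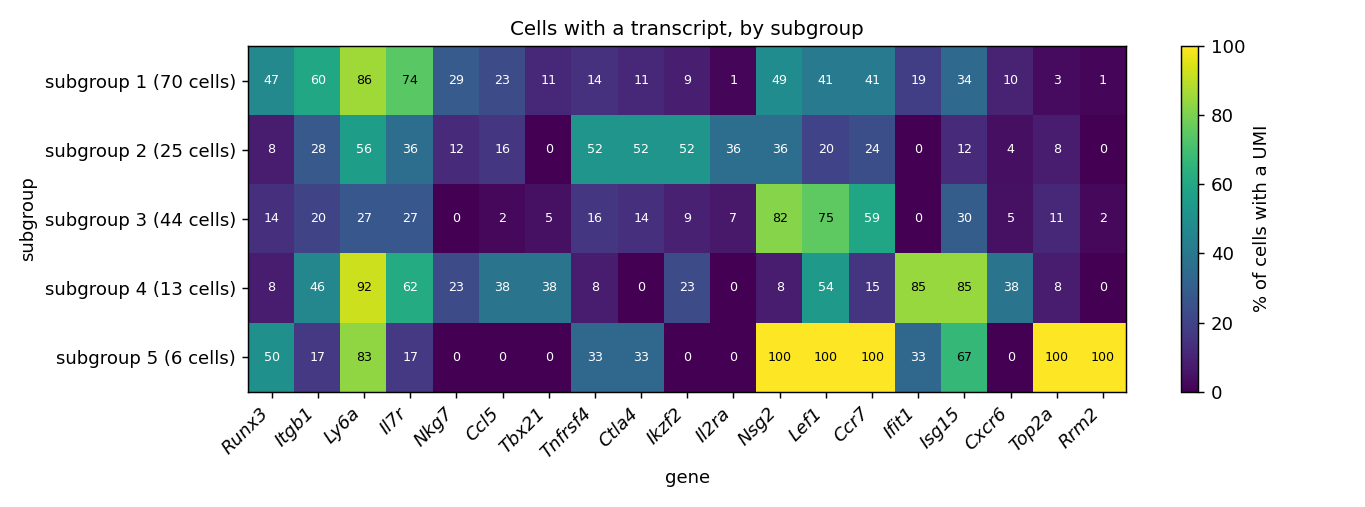
Percent of cells with a UMI of each gene (color and printed number) in the 5 Leiden subgroups of the 158 Cxcr3+Foxp3- cells. Nkg7 and Ccl5 are found in 28.6 and 22.9% of subgroup 1, Ctla4 and Ikzf2 in 52.0% of subgroup 2, Lef1 in 75.0% of subgroup 3, Ifit1 and Isg15 each in 84.6% of subgroup 4, and Top2a in each cell of subgroup 5.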

How the data were processed

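CD4+ T cells of medLN and MLN were sequenced with the 10x 5′ method in 1 library for each sort gate. The authors aligned reads with Cell Ranger (version 6.1.2 in the submitters' processing notes, which name mm10 and GRCm38), joined both gates and deposited unnormalized UMI counts per gene and hashtag for each barcode. The gate was read from the barcode's last number and the title. Cells were filtered and hashtags called as stated above. Single cells share their mouse, so UMIs were summed per hashtag sample and class. These sums entered the quasi-likelihood test of edgeR 4.0.16 (R 4.3.3) after filterByExpr and TMM, with the hashtag sample as a block between classes, between gates and for the interaction of class and node, and with no block between nodes, Benjamini-Hochberg adjustment over all genes tested and a threshold of 0.05. Cxcr3, Foxp3 and T cell receptor genes were not tested.

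In each comparison the 12 genes higher and the 12 lower with the largest log2 fold change were selected, besides genes of fixed lists. The former were taken from genes called with at least 50 CPM in the higher group and 1 direction in every sample pair. For the interaction, Cxcl10 (-12.6), Ly6d (10.6), Ighg1 (9.80), Hist1h2ao (-11.2), Nusap1 (-10.6), Hist1h2af (-5.17) and Spc24 (-4.26) are not described above. Iglv1 (11.7), Dapl1 (4.33) and Igkc (4.16) were also selected there. None of these passed with no replicate block or after thinning to 1500 UMIs. In the Cxcr3+Foxp3- cells, 1 cell held 99.9% of the Ighg1 and 73.7% of the Cxcl10 UMIs. The cells and all lists were chosen with earlier results of these data known. Samples with the same number come from the same mouse, and their deviations from the node means correlated by 0.0962 over 2673 genes. Alternatives were DESeq2 1.42.0, other normalization and filters, other cell rules, and each sample left out. Thinning to 1500 UMIs, leaving out very deep cells and leaving out cells without CD3 RNA (also for the cycling share) were chosen after seeing the data. Counts per sum were simulated with a log2 change of 2 in the changed genes and a spread taken from the trend of each fit. On these counts, 149 of 197 genes were found between classes (2 false calls), 193 of 198 between nodes (4), 43 of 195 for the interaction (1) and 197 of 197 between gates (18). Single deep cells were not simulated, so these numbers do not give the power on the real sums. Subgroups were made with scanpy 1.11.5 on 1500 variable genes and 15 components at a resolution of 0.5. Gene positions are those of GENCODE vM21, promoter sequence is from RefSeq. Intervals were computed with scipy 1.17.1. The lung libraries and the TCR contigs were not used here, and a few genes and 1 alternative are not reported here.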

Additional observations from a re-analysis of the deposited data

Results flagged for a closer look

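In 94 groups of 4 samples, each checked for a value far from the other 3, 4 stood apart, and chance gives about 1 in 20. In the Cxcr3+Foxp3- cells, Klhdc2 was highest in medLN 2 (38.2 CPM, others 20.3 to 22.1), Tyrobp in medLN 2 (355 CPM, others 0 to 11) and Igkc in medLN 1 (2364 CPM, others 0 to 32.7). In the Cxcr3-Foxp3- cells Igkc was also highest in medLN 1 (88.5 CPM, others 2.21 to 9.92).

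The difference between medLN and MLN was not the same in Cxcr3+Foxp3- and Cxcr3-Foxp3- cells for a set of genes described above, by the interaction test of edgeR. The log2 difference of differences was 2.34 for Itgb1 (adjusted p = 9.18e-08), 2.06 for S100a6 (0.00805), 0.93 for Ly6a (0.0226), 1.13 for Il7r (0.00731), 1.00 for Selplg (0.0369), 1.63 for Gpr183 (0.00784) and 1.59 for S1pr1 (0.00471), all toward medLN. It was -2.36 for Ikzf2 (0.000292), -1.54 for Hmgb2 (1.19e-06), -2.82 for Stmn1 (9.18e-08) and -3.20 for Top2a (3.74e-08), toward MLN. With no replicate block, and also after thinning to 1500 UMIs, Itgb1 alone of these genes passed.

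Cells without a hashtag call entered no comparison. Among 1094 such IL-4eGFP- cells, 40 were Cxcr3+Foxp3- (3.66%, Clopper-Pearson 95% interval 2.62 to 4.95, median 6776.5 UMIs per cell), against 1.77% (1.51 to 2.06, 3317.5 UMIs) of the cells with a call. Depth differed with the hashtag call, and its part in the higher share was not tested.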

How the results depend on the processing

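The count of genes that differed between classes (418) became 260 with DESeq2 and 277 with at least 2 Cxcr3 UMIs, and it lay between 131 and 433 with 1 sample left out. Between nodes the 46 genes became 142 with no filter on low counts, 11 with DESeq2, 18 with at least 2 Cxcr3 UMIs, 93 with mouse as a replicate block, 6 without cycling cells, 0 after thinning to 1500 UMIs, 7 without the deepest 5% of cells, and 2 to 204 with 1 sample left out. The 72 genes of the interaction became 12 with DESeq2, 45 with at least 2 Cxcr3 UMIs, 7 with no replicate block, 1 after thinning, 5 without the deepest cells, and 23 to 147 with 1 sample left out. Between gates the 268 genes became 519 with no filter, 148 with DESeq2, 17 with at least 2 Cxcr3 UMIs, 104 after thinning, and 50 to 577 with 1 sample left out. With no replicate block 511 genes were called between classes and 333 between gates. The share in medLN minus that in MLN turned to -0.0433 percentage points with at least 2 Cxcr3 UMIs. The cause of these moves was not tested. A planned comparison of both classes among activated cells alone is not reported here, so how far the class differences hold at equal activation is not shown.

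Some single genes changed sign. Between classes these were Tyrobp (-0.43) without medLN 2 (up to 3.79 with another sample left out), Mcm5 (-0.36) and Stmn1 (-0.43) without the deepest cells, and Stmn1 (-0.0813) and Igkc (-0.95) without cycling cells. Between nodes Hmgb2 turned to 0.23 without cycling cells and 0.43 without the deepest cells. For the interaction Iglv1 (-0.39) and Dapl1 (-7.12) turned with at least 2 Cxcr3 UMIs, Iglv1 (-0.41), Igkc (-0.0305) and Hmgb2 (0.68) without the deepest cells, H2-Ab1 (-7.68), H2-Aa (-9.28), Tyrobp (-6.34) and Cd74 (-3.44) without cells lacking CD3 RNA, Tyrobp (-8.48) without medLN 2 (up to 6.59) and Cd74 (-0.68) without cells with markers of other types. Depth limits all of this, since 27 to 50 cells and at most 183318 UMIs stand behind a value, and 1 UMI is worth 5.46 to 6.95 CPM.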
